A study of Homo sapiens with 4 samples.

Results

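The RBM genes are named for the RNA-binding motif in the proteins they encode. The set described here holds the genes in the deposited intron lists whose symbol is RBM, a number and at most 1 further letter. It leaves out RBM5, RBM8A, RBM17 and chromosome Y. Of 31 genes with such a symbol, 28 remained, out of 15902 genes in all, and they carried 261 of the 142206 introns used. The rule used names only, but the members were chosen with earlier results of these data known.

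RNA was measured in SUM159 cells, an established triple-negative breast cancer line, after 12 hours with H3B-8800 or with its vehicle DMSO. H3B-8800 is a small molecule that binds SF3b, the part of the U2 particle of the spliceosome that holds the branch point of an intron. Each treatment had 2 libraries, called biological duplicates in the series' design text, made from polyA RNA of the cytoplasm. All 4 libraries therefore come from 1 line and 1 cell fraction, and nuclear RNA was not analysed here.

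RNA recognition motifs are found in proteins that act at every step of an RNA's life, so the RBM name groups genes by a protein domain and not by a pathway. Several members work in or beside the spliceosome, others pass nuclear RNA to the exosome or to export, others build ribosomes in the nucleolus, and RBM3 is best known as a protein made when cells are cooled. Many RNA-binding proteins control the splicing of their own transcripts through exons or introns whose inclusion exposes the mRNA to nonsense-mediated decay, the pathway that destroys mRNAs with an early stop codon.

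For each listed intron the files give intronic reads, which lie in the intron, and reads taken here as spliced, which span it. Introns are numbered by their order among those listed, which can leave out introns of the transcript. A gene's spliced level is printed as CPM, its spliced reads summed over introns per 1000000 spliced reads after TMM scaling, a scaling that centres most genes on no change. The intronic-to-spliced ratio follows intron-containing RNA relative to the spliced RNA of the same gene or intron. Changes are log2 of H3B-8800 over DMSO with their standard error (SE), tested with edgeR's quasi-likelihood test and Benjamini-Hochberg adjustment over all genes or introns tested, and "called" means an adjusted p under 0.05. In RNA from many cells, fewer cells with a transcript and less of it per cell cannot be told apart.

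The library totals recovered from the files ran from 58000000 to 64000000 reads. Of the 3 markers of a mesenchymal breast line, VIM was at 4924 to 6075 CPM, CD44 at 9.32 to 22.7 and ZEB1 at 7.51 to 8.94, while EPCAM did not exceed 1.04, CDH1 did not exceed 0.0875 and ESR1 had no reads. The spread between the libraries of a pair was larger than the noise of independent counts (chi-square per degree of freedom 3.80 for H3B-8800 and 3.52 for DMSO). The libraries of a pair therefore do not hold the same counts. Reads may count more than once in a gene's sum, which raises these values, so they cannot tell separate cultures from the same RNA sequenced again. Counting intervals and limits cover counting error only.

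More RBM genes had higher than lower spliced reads with H3B-8800, and the intronic share of their reads was larger too, as it was across all genes. Of the 28 genes, 23 entered the test of spliced reads. Spliced reads rose in 14 of them and fell in 3, while 6 were not called. Over all 9468 genes tested, 32.8% were called higher and 32.7% lower. The median change of the tested RBM genes was 0.40 and that of all tested genes was 0.01. Of the tested RBM genes, 60.9% were called higher and 13.0% lower. Scaled to library totals in place of TMM, where all genes have a median change of -0.16, 12 RBM genes were called higher and 4 lower, and 36.2% of the calls over all genes were higher in place of 50.0%.

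The intronic-to-spliced ratio could be tested in 19 RBM genes. It rose in 13 and fell in 0, against 65.4% called higher and 2.35% called lower of 7566 genes tested, so the RBM share of 68.4% was near the background. In an unadjusted edgeR test at p under 0.05 there were 14 calls in either direction, and DESeq2 also called 0 lower. The median change of the ratio was 1.30 in these RBM genes and 1.35 in all genes. Summed over all 261 introns, intronic reads were 7.17% and 6.93% of the reads in the H3B-8800 libraries and 3.36% and 3.42% in the DMSO libraries. RBM3 intron 6 alone held 1176 of 3167 and 1243 of 3312 of these intronic reads in the H3B-8800 libraries. In the DMSO libraries it held 121 of 1192 and 105 of 1199. Without RBM3 the shares were 5.999% and 5.826% after H3B-8800 and 3.452% and 3.467% in DMSO, a smaller difference. Over all listed introns the same shares were 8.19% and 8.24% against 4.23% and 4.24%. An exact permutation test of 2 against 2 libraries cannot give a p below 0.333, so these shares are given without a test.

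**Figure D1:**
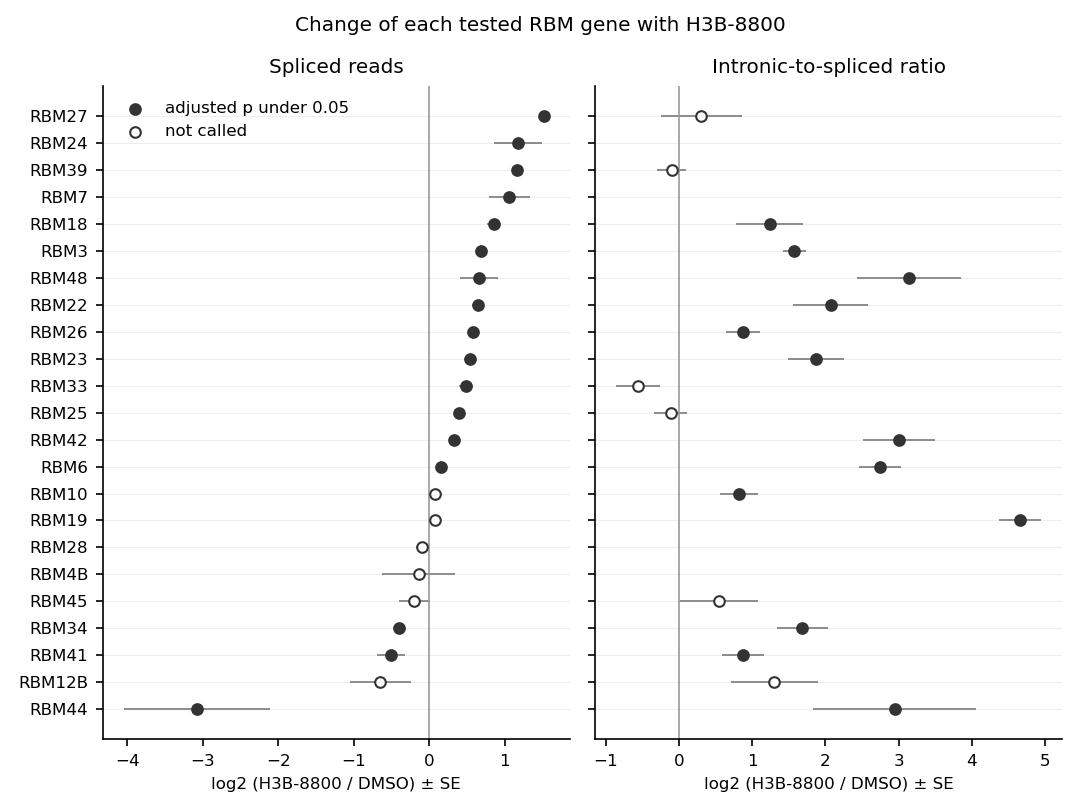
Log2 change with H3B-8800 over DMSO (points, with SE as bars) of spliced reads in the 23 tested RBM genes (left) and of the intronic-to-spliced ratio where it could be tested, in 19 (right). Filled points were called: on the left 14 lie above 0 and 3 below, on the right all 13 lie above 0, with RBM19 farthest out at 4.66.

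RBM3 had the most spliced RNA of the family and RBM44 the least of the tested genes when levels were set per listed intron, which makes genes with different numbers of introns comparable. RBM3 had 203 and 217 CPM per intron in the H3B-8800 libraries and 130 and 129 in the DMSO libraries. RBM39 followed with 51.4 and 49.2 against 22.4 and 22.4, but in DMSO it did not stand apart from RBM34, which had 22.5 and 21.8. RBM10, RBM25 and RBM42 lay next in DMSO, between 11.3 and 12.5 CPM per intron, and RBM25 and RBM42 overlapped. At the low end, RBM24, RBM4B, RBM12B, RBM45 and RBM48 lay between 0.870 and 1.67 in DMSO, with overlapping values. RBM44 had 0.218 and 0.0278 there.

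**Figure D2:**
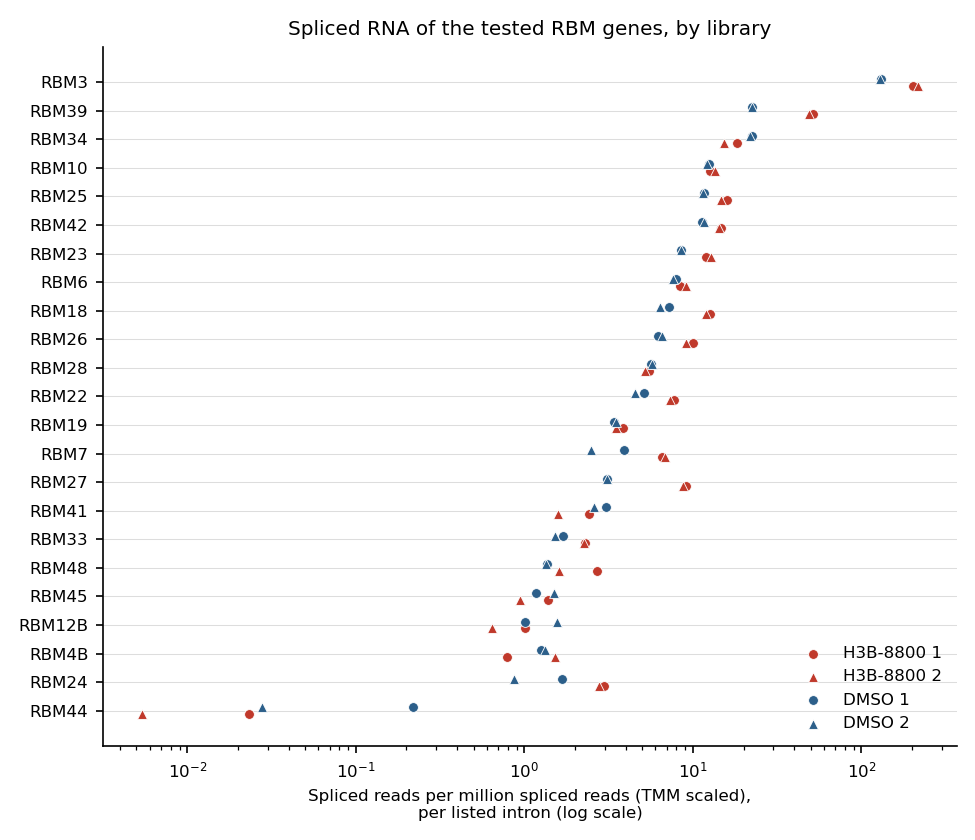
Spliced CPM per listed intron (log axis) of the 23 tested RBM genes in each of the 4 libraries, ordered by the mean of the DMSO libraries. RBM3 lies highest at 129 to 217 and RBM44 lowest. RBM27, RBM39, RBM18 and RBM3 are among the genes whose H3B-8800 points lie clear of the DMSO points.

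5 members were not tested because their mean was under 1 CPM. RBM11, RBM20, a regulator of titin splicing in heart muscle, and RBM46 had no reads in any library. A count of 0 allows up to 3 counts, which is 0.211 to 0.259 CPM in these libraries. RBM47 had 4 and 0 spliced reads in treated cells and 1 and 1 in DMSO cells. RBM43 had 11 and 7 against 2 and 11. These counts are too few for a direction.

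Among members tied to the splicing machinery, spliced reads of RBM39, RBM25, RBM22, RBM23 and RBM42 all rose. RBM39 is an SR-like protein related to the U2AF subunit that reads the 3′ splice site. It had 668 and 639 CPM after H3B-8800 and 291 and 292 in the controls. The H3B-8800 libraries were both above both DMSO libraries, a rise of 1.17 (SE 0.04, edgeR adjusted p 4.12e-10), or 2.24-fold. RBM23, its close relative, had 96.0 and 102 against 68.5 and 68.0 CPM. Its groups also stood apart, with a rise of 0.54 (SE 0.07, edgeR adjusted p 1.55e-05).

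RBM22, which sits in the catalytic core of the spliceosome and touches the intron and U6, had 77.3 and 73.6 CPM in the treated pair and 51.1 and 45.2 in the control pair. It rose by 0.65 (SE 0.08, edgeR adjusted p 1.27e-05) with no overlap of the groups. RBM25, a splicing regulator that works with the U1 particle, had 286 and 266 against 210 and 208 CPM, a rise of 0.40. RBM42, a protein of the tri-snRNP, had 132 and 129 against 102 and 106 CPM, a rise of 0.33. The edgeR adjusted p was 1.81e-05 for RBM25 and 3.81e-04 for RBM42. In each of these 3 genes both treated libraries lay above both controls.

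RBM48 and RBM41 are proteins of the minor spliceosome, which removes the rare U12-type introns, and they were called in opposite directions on few reads. RBM48 had 10.8 and 6.45 CPM in the treated libraries and 5.43 and 5.36 in the DMSO libraries. The higher value was in 1 treated library, and the change of 0.67 (SE 0.25, edgeR adjusted p 0.033) dropped to 0.26 (adjusted p 0.339) without H3B-8800 replicate 1. It was also not called without DMSO replicate 1 (adjusted p 0.108) or replicate 2 (adjusted p 0.121). RBM41 had 14.6 and 9.51 against 18.4 and 15.7 CPM, with both treated values below both controls. Its fall of 0.51 (SE 0.19, edgeR adjusted p 0.030) was -0.22 (adjusted p 0.330) without H3B-8800 replicate 2 and was not called without DMSO replicate 1 (adjusted p 0.185).

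RBM10 and RBM6 are relatives of RBM5 and control the choice of alternative exons. RBM10 had 241 and 256 CPM in treated cells and 237 and 232 in DMSO cells. The groups did not overlap, but the change of 0.08 was not called (edgeR adjusted p 0.169). RBM6 had 125 and 136 against 119 and 115 CPM, again without overlap. Its small rise of 0.16 (edgeR adjusted p 0.041) was not called without H3B-8800 replicate 2 (0.11, adjusted p 0.203), without DMSO replicate 1 (adjusted p 0.100) or without DMSO replicate 2 (adjusted p 0.247). Scaled to library totals in place of TMM, RBM10 was at -0.091 and RBM6 at -0.013.

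RBM24 and RBM4B also regulate alternative exons and were low. RBM24, known from muscle, had 5.95 and 5.56 CPM after H3B-8800 and 3.34 and 1.74 in the controls, with no overlap. Its rise of 1.18 (SE 0.32, edgeR adjusted p 0.0057) rested on 68 and 69 against 48 and 25 spliced reads. It was not called without DMSO replicate 2 (0.77, adjusted p 0.073), without H3B-8800 replicate 1 (adjusted p 0.079) or without H3B-8800 replicate 2 (adjusted p 0.074). RBM4B had 0.787 and 1.53 against 1.25 and 1.32 CPM over its single listed intron. The groups overlapped and the change of -0.14 was not called (edgeR adjusted p 0.814).

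The members that act on nuclear RNA after transcription held the largest called rise. RBM27 and RBM26 are closely related proteins linked to the PAXT connection, which brings polyadenylated nuclear RNA to the exosome. RBM27 had 183 and 174 CPM in the treated pair and 62.3 and 62.1 in the control pair. The treated libraries were far above the controls, a rise of 1.52 (SE 0.06, edgeR adjusted p 1.09e-09), or 2.87-fold. RBM26 had 169 and 156 against 106 and 112 CPM, again without overlap, a rise of 0.58 (SE 0.06, edgeR adjusted p 4.05e-06).

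RBM7 is the RNA-binding subunit of NEXT, the adaptor that hands short-lived nuclear transcripts to the exosome. It had 6.56 and 6.85 CPM in the treated libraries and 3.90 and 2.51 in the DMSO libraries over its single listed intron. The groups stood apart, with a rise of 1.06 (SE 0.27, edgeR adjusted p 0.0037), which was 0.77 (adjusted p 0.053) without DMSO replicate 2 and was not called without H3B-8800 replicate 2 (adjusted p 0.060). RBM33, an RNA-binding protein with roles in m6A demethylation and mRNA export, had 38.8 and 38.2 against 29.01 and 25.8 CPM. It rose by 0.49 (edgeR adjusted p 5.58e-04), with both treated libraries above both controls.

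The 3 nucleolar members did not rise in spliced reads. RBM34, the relative of a yeast ribosome assembly factor, had 73.3 and 61.2 CPM in treated cells and 89.8 and 87.2 in DMSO cells. Both treated libraries were lower, a fall of 0.40 (SE 0.09, edgeR adjusted p 0.0011). RBM28 had 71.1 and 67.8 against 73.8 and 74.8 CPM, both treated values below both controls but a change of -0.10 that was not called (edgeR adjusted p 0.247). Scaled to library totals, RBM28 was called lower, at -0.27 (edgeR adjusted p 0.0036). RBM19, a many-motif protein needed to process pre-rRNA for the small ribosomal subunit, had 88.2 and 80.4 against 78.3 and 80.9 CPM. Its groups overlapped and the change of 0.08 was not called (edgeR adjusted p 0.342), and it was -0.095 when scaled to library totals.

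RBM3, the cold-inducible member, had 1217 and 1305 CPM after H3B-8800 and 782 and 777 in the controls. The groups were well apart, with a rise of 0.69 (SE 0.04, edgeR adjusted p 1.18e-08), or 1.62-fold. CIRBP, the other classic cold-inducible RNA-binding protein and a relative of RBM3, went the other way. It had 40.0 and 41.7 CPM against 70.9 and 70.9, a fall of 0.80 (SE 0.08, edgeR adjusted p 1.02e-06).

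RBM18, RBM45, RBM12B and RBM44 complete the tested members. RBM18 had 63.3 and 60.3 CPM in the treated pair and 35.9 and 32.2 in the control pair, clearly apart, a rise of 0.86 (SE 0.09, edgeR adjusted p 1.44e-06). RBM45 had 12.5 and 8.54 against 10.6 and 13.4 CPM and RBM12B had 2.01 and 1.29 against 2.02 and 3.13 CPM. The values of RBM45 overlapped, those of RBM12B all but met, and neither change was called (edgeR adjusted p 0.416 and 0.177). RBM44, a germ-cell protein, had 4 and 1 spliced reads in the treated libraries and 47 and 6 in the DMSO libraries. Its called fall (-3.08, SE 0.97, edgeR adjusted p 0.013), whose fitted size depends on very few treated reads, came from 47 reads in 1 control library, without which it did not pass the minimum level. It was also not called without H3B-8800 replicate 1 (adjusted p 0.134) or replicate 2 (adjusted p 0.274).

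The introns of a gene did not always move together. Spliced reads were testable at 213 RBM introns, of which 102 were higher and 6 lower with H3B-8800, against 21.5% and 21.7% of all 66136 introns tested. Introns of 1 gene share its level and are not separate results. RBM27, RBM26 and RBM39 gave 19, 15 and 13 of the introns called higher. Scaled to library totals the counts were 68 higher and 16 lower, and 29.1% of the calls over all introns were higher in place of 49.7%. All 13 listed introns of RBM39 and all 19 tested introns of RBM27 were called higher, with changes of 0.80 to 1.40 and of 0.86 to 2.49. All 6 listed introns of RBM3 and all 5 of RBM18 were also called higher. The 6 lower introns were introns 21 and 23 of RBM19, introns 2 and 3 of RBM34 and introns 4 and 5 of RBM41. Without either H3B-8800 library, edgeR called no intron of any gene in this test, with smallest adjusted p-values of 0.085 and 0.083, while 93 and 91 RBM introns had an unadjusted p under 0.05.

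RBM33 changed level along the gene. At introns 1 to 5 it had 104 and 116 spliced reads in treated cells and 191 and 155 in DMSO cells. At introns 6 to 17 it had 340 and 358 against 226 and 216. These sums are not scaled for library size. By library totals, treated spliced reads were 0.68 of the controls at introns 1 to 5 and 1.68 of them at introns 6 to 17. So the treated sums were lower before intron 6 and higher from intron 6 on, a division chosen after the values were seen. Of the introns tested, 0 of 4 in the first stretch had a change above 0 (median -0.27, none called) and 11 of 11 in the second did (median 1.06, 6 called higher). Intron 6, chr7:155700945-155706859 on hg38, plus strand, between coding exons, had 7 and 12 intronic reads after H3B-8800 and 44 and 57 in the controls. Its ratio fell by 3.13 (SE 0.57, edgeR adjusted p 6.88e-04). GENCODE places the last exons of the protein-coding transcripts RBM33-201 and RBM33-205 over the first 239 and 546 bases of this intron, and which of the intronic reads belong to them was not tested.

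**Figure D3:**
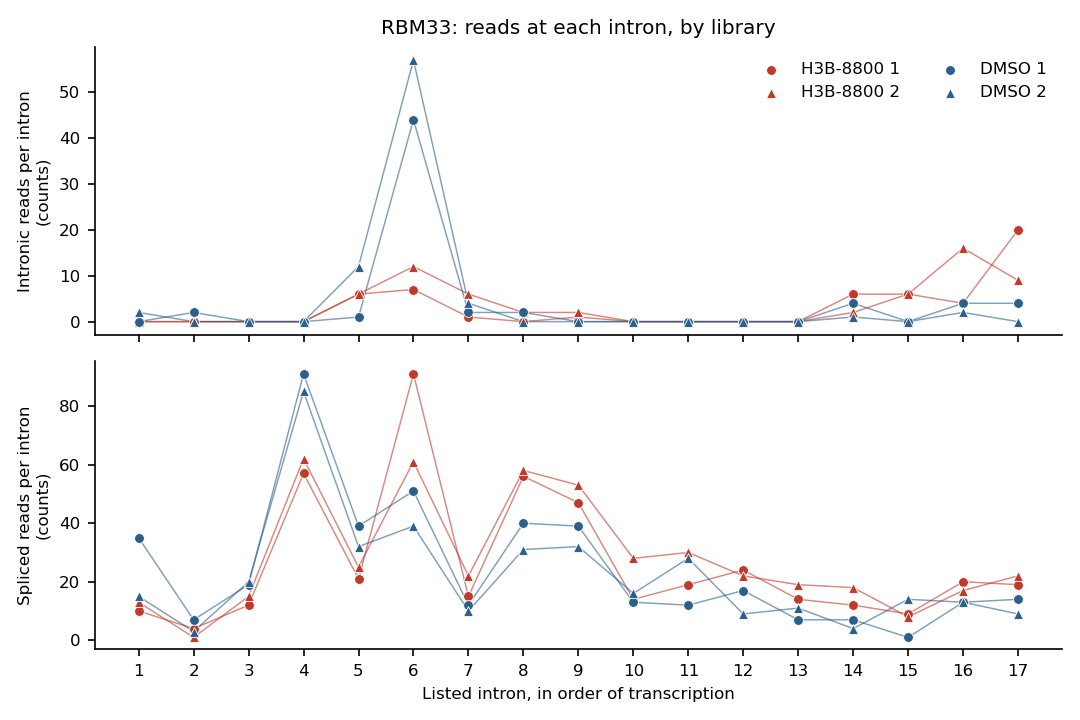
Intronic reads (top) and spliced reads (bottom) at each of the 17 listed introns of RBM33, in order of transcription, in each library. At intron 6 the DMSO libraries have 44 and 57 intronic reads and the H3B-8800 libraries 7 and 12, and from that intron on the treated libraries have the higher spliced sums. The counts shown are not scaled for library size.

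RBM19 had the largest log2 change of the intronic-to-spliced ratio among the tested RBM genes, although its spliced reads did not change by the test. Over the whole gene, intronic reads were 24.1% and 24.7% of reads in the treated pair and 1.23% and 1.27% in the control pair. The ratio rose by 4.66 (SE 0.29, edgeR adjusted p 4.67e-09). Most of these reads lay in introns 17 to 20 of its 23 listed introns, 11771 bases together, on the minus strand of chromosome 12. These held 262 and 251 intronic reads in the treated libraries and 2 and 0 in the DMSO libraries. They lie between coding exons and hold no annotated exon of either strand.

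The exons between these introns are short and coding, and they are shown because the 4 introns with these reads lie on either side of them. They were read from the GENCODE 29 transcript RBM19-203 on hg38, minus strand, 5′ to 3′, and capitals mark the 3 bases at each end that meet an intron, not codons.
RBM19 exon between introns 17 and 18, chr12:113924697-113924757: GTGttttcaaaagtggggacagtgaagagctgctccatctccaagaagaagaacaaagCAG
RBM19 exon between introns 18 and 19, chr12:113920611-113920690: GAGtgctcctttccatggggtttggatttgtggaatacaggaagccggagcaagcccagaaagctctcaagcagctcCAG
RBM19 exon between introns 19 and 20, chr12:113918392-113918447: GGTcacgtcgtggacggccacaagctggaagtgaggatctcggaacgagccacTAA
These exons are 61, 80 and 56 bases long, while the introns around them are 2163 to 4006 bases long.

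Intron 17, chr12:113924758-113927053, had 88 and 79 intronic reads after treatment and none in the controls. Intron 18 had 61 and 59 and intron 20 had 60 and 59, again with none in DMSO. With a limit of 3 counts over both DMSO libraries, intronic reads were at least 59.4-fold higher in intron 17, at least 42.7-fold higher in intron 18 and at least 42.3-fold higher in intron 20. Intron 19 had 53 and 54 against 2 and 0, a ratio of 57.1 with an exact 95% interval of 15.4 to 477. All 4 ratios were called (edgeR adjusted p 1.61e-05 to 6.72e-05), and every treated library was far above every control.

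Spliced reads of RBM19 were also unequal along the gene, a division chosen after the values were seen. At introns 1 to 16 the sums of reads, which are not scaled for library size, were 790 and 774 in treated cells and 779 and 767 in DMSO cells. At introns 17 to 20 they were 160 and 158 against 230 and 240, and at introns 21 to 23 they were 58 and 66 against 117 and 155. On the TMM scale, 13 of the 16 introns up to intron 16 had a change above 0 (median 0.36, 2 called higher). From intron 17 on, 1 of 7 did (median -0.49), and introns 21 and 23 were called lower while introns 17 and 18, at 0.020 and -0.065, were not called. Intron 7 of RBM19, chr12:113952591-113955130, was the other called intron, with 16 and 26 intronic reads against 2 and 2. Without introns 17 to 20, the intronic share of RBM19 was 6.40% and 8.30% after H3B-8800 and 1.32% and 1.60% in the controls.

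**Figure D4:**
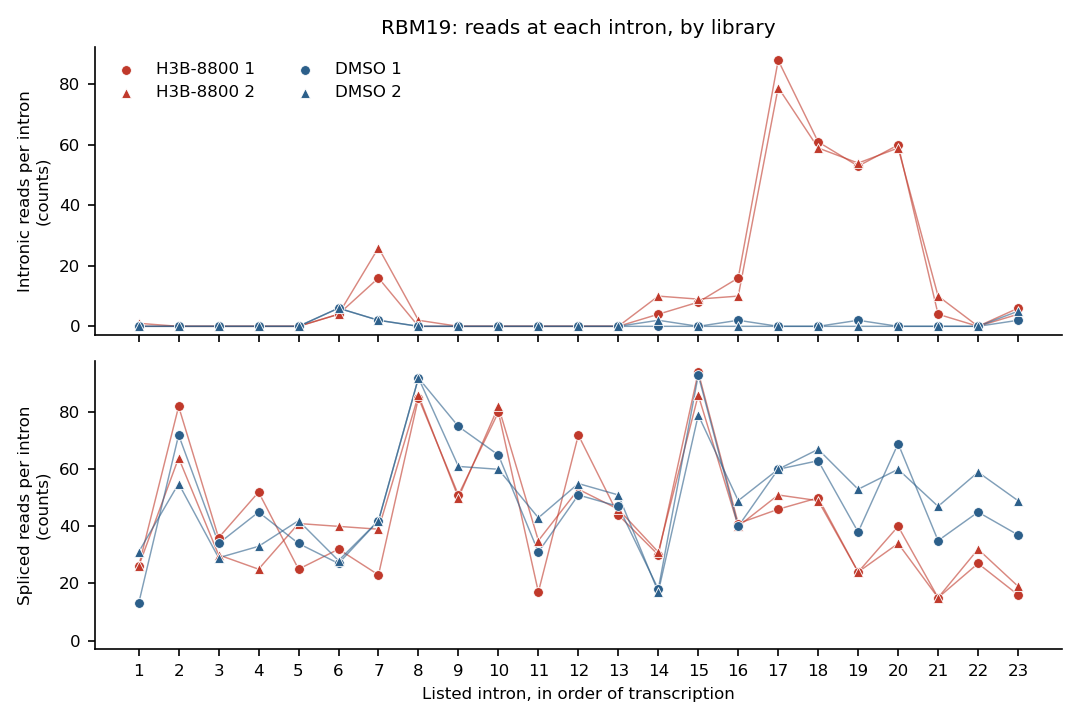
Intronic reads (top) and spliced reads (bottom) at each of the 23 listed introns of RBM19, in order of transcription, in each library. The treated libraries hold 53 to 88 intronic reads at introns 17 to 20 where the controls hold 0 to 2. The read counts are not scaled for library size.

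Intronic reads alone could be tested at 29 RBM introns of 14 genes, scaled to the library totals. They were higher at 16 introns of 8 genes and lower at 1, RBM33 intron 6. Over all 12013 introns tested, 48.2% were called higher and 5.74% lower. With TMM scaling of the intronic reads, 10 RBM introns were called higher and 9 lower, and 52.5% of the calls over all introns were higher in place of 89.4%. Without either H3B-8800 library edgeR called no intron of any gene in this test (smallest adjusted p 0.094 and 0.093), and 15 and 16 RBM introns had an unadjusted p under 0.05. The ratio to spliced reads could be tested at 27 introns of 12 genes, and it was higher at 15 introns of 9 genes and lower at 2, RBM33 intron 6 and RBM39 intron 3. The background of that test was 56.5% called higher and 2.88% called lower of 9937 introns, so the RBM share of 55.6% called higher was near it. Of the 27 introns, 17 held annotated exon sequence on either strand, with 8 called higher and 2 lower, and 10 held none, with 7 called higher and 0 lower. Most of these 7 were in RBM19, at introns 7 and 17 to 20, and the others were RBM23 intron 7 and RBM26 intron 17. In a fit of introns of any gene without annotated exon sequence, 2012 of 3229 were called higher and 57 lower, and the difference between these kinds of intron was not tested.

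**Figure D5:**
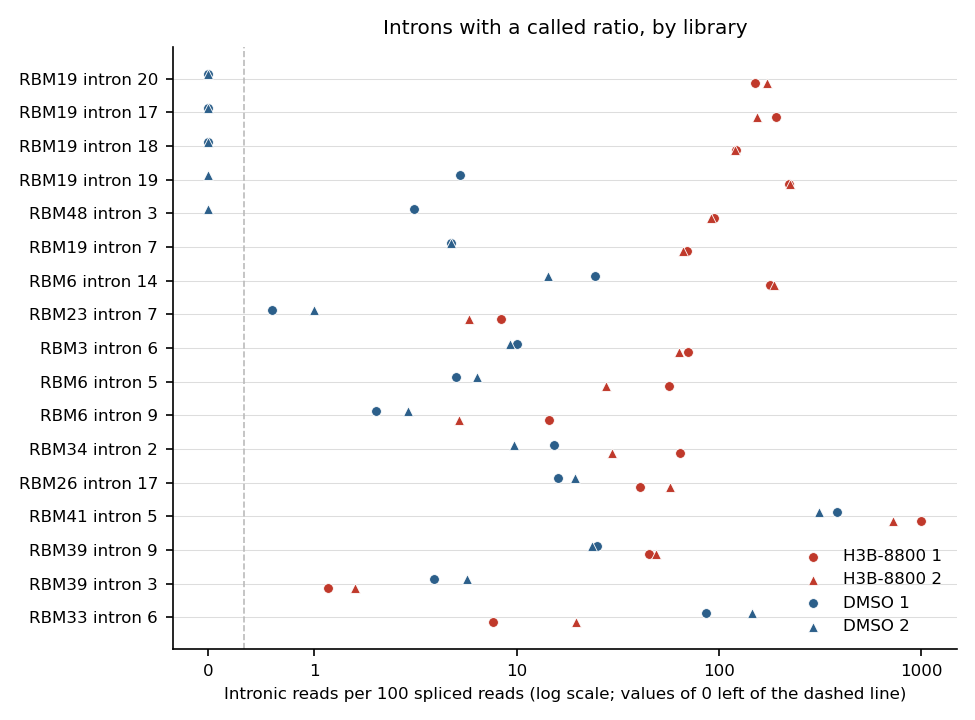
Intronic reads per 100 spliced reads (log axis, values of 0 drawn left of the dashed line) at the 17 RBM introns with a called ratio, in each library, ordered by the change. The treated points lie to the right of the controls at 15 introns and to the left at RBM39 intron 3 and RBM33 intron 6.

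In RBM3, the intron with a called ratio was the last one. Intron 6, chrX:48577110-48577464, plus strand, lies in the 3′ UTR and had 1176 and 1243 intronic reads in the treated pair and 121 and 105 in the control pair. The treated libraries were far higher, and per 100 spliced reads the values were 70.6 and 63.2 against 10.1 and 9.24. The ratio rose by 2.79 (SE 0.23, edgeR adjusted p 3.06e-06). Over introns 1 to 5 the intronic share was 2.11% and 2.19% in the treated libraries and 2.41% and 2.69% in the DMSO libraries, so treated was no higher there. The last exon of the protein-coding transcript RBM3-201 covers all 355 bases of intron 6, so reads in it are also reads of an annotated isoform.

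RBM48 and RBM6 each had an intron with few control reads. RBM48 intron 3, chr7:92532550-92534401, plus strand, between coding exons, had 32 and 30 intronic reads in treated cells and 1 and 0 in DMSO cells. The counts gave a ratio of 66.1 (exact 95% interval 11.4 to 2654), and the intronic-to-spliced ratio was called higher (edgeR adjusted p 3.65e-04). RBM6 intron 14, chr3:50070553-50075200, plus strand, had 89 and 82 against 11 and 6, a ratio change of 3.21 (SE 0.51, edgeR adjusted p 2.78e-04). RBM6 intron 5 (22 and 16 against 4 and 4) and intron 9 (23 and 9 against 4 and 5) were also called higher. An exon of the annotated transcript RBM6-213 covers all 414 bases of intron 9. In all 3 introns of RBM6 the treated libraries were above the controls. The call of intron 9 was lost without DMSO replicate 1 (edgeR adjusted p 0.104) and without DMSO replicate 2 (0.055).

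RBM23 intron 7, chr14:22901884-22901979, minus strand, is 96 bases long and had 32 and 25 intronic reads against 2 and 3. Its ratio rose by 3.07 (SE 0.58, edgeR adjusted p 8.15e-04). RBM26 intron 17, its last, chr13:79320711-79322348, minus strand, had 126 and 158 against 44 and 43, a rise of the ratio of 1.46 (SE 0.33, edgeR adjusted p 0.0026). Both lie between coding exons and hold no annotated exon, and in both the treated libraries stood above the controls. Summed over the whole gene, these introns included, the ratio rose by 1.87 in RBM23 and 0.88 in RBM26. RBM23 had 45 and 44 intronic reads in all against 9 and 11, and RBM26 had 187 and 216 against 94 and 83. The other introns of these genes were not tested as a group.

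RBM34 and RBM41 combined fewer spliced reads with a higher ratio. RBM34 intron 2, chr1:235160648-235160892, minus strand, had 72 and 36 intronic reads after H3B-8800 and 33 and 19 in the controls. The treated libraries were higher but far from each other. Its ratio rose by 1.84 (SE 0.46, edgeR adjusted p 0.0051) and was 1.24 (adjusted p 0.088) without H3B-8800 replicate 1. RBM41 intron 5, chrX:107069403-107088435, minus strand, had 140 and 109 intronic reads against 134 and 115, which overlap, while its spliced reads were 14 and 15 against 35 and 37. An exon of RBM41-208, annotated as a target of nonsense-mediated decay, covers 1023 bases at the edge of this intron. Which of the intronic reads belong to that exon was not tested. The ratio change of 1.30 (SE 0.45, edgeR adjusted p 0.025) was not called once H3B-8800 replicate 1 (0.167), H3B-8800 replicate 2 (0.063) or replicate 2 of DMSO (0.089) was left out.

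RBM22 and RBM42 had called ratios over the gene although no single intron had enough reads. RBM22 had 43 and 29 intronic reads in all in the treated pair and 11 and 2 in the control pair, a ratio change of 2.08 (SE 0.51, edgeR adjusted p 0.0021), or 3.61 without DMSO replicate 1 and 1.40 (adjusted p 0.030) without DMSO replicate 2. RBM42 had 30 and 39 against 2 and 6, a change of 3.005 (SE 0.49, edgeR adjusted p 5.92e-05). The treated libraries were higher in both genes. RBM48 over the whole gene changed by 3.14 (edgeR adjusted p 0.0011). Without 1 library the RBM48 change ranged from 2.36 (adjusted p 0.019) without DMSO replicate 1 to 4.82 without DMSO replicate 2, and it was 2.50 without H3B-8800 replicate 2. The ratio of RBM6 changed by 2.75 (edgeR adjusted p 9.02e-07). The ratios of RBM10 (0.82, edgeR adjusted p 0.011), RBM18 (1.24, 0.026), RBM41 (0.88, 0.013) and RBM44 (2.95, 0.027) were called on all 4 libraries. In RBM44, intronic reads were 24.2% of reads in DMSO replicate 1 and 78.6% in DMSO replicate 2. They were 81.8% and 93.75% in the treated libraries, so only DMSO replicate 1 stood far apart. Without H3B-8800 replicate 1 RBM10 was at 0.56 (0.168), and without DMSO replicate 2 at 0.66 (0.070). Without H3B-8800 replicate 2 the adjusted p was 0.149 for RBM18, 0.125 for RBM41 and 0.132 for RBM44, and without DMSO replicate 2 it was 0.155 for RBM18.

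RBM27, RBM39 and RBM25 rose in spliced reads with no called change of the ratio. RBM27 had 10 and 20 intronic reads in the whole gene in the treated libraries and 7 and 3 in the DMSO libraries, and a ratio change of 0.31 (edgeR adjusted p 0.639). RBM39 had 280 and 341 against 169 and 188, and a ratio change of -0.10 (edgeR adjusted p 0.659). RBM25 had 98 and 87 against 89 and 94, and a ratio change of -0.12 (edgeR adjusted p 0.670). The intronic reads of RBM39 were higher in both treated libraries, as its spliced reads were, and those of RBM25 overlapped between the groups. RBM33 (-0.55, edgeR adjusted p 0.114, or 2.33 and 0.025 over introns without an annotated exon), RBM45 (0.55, 0.371) and RBM12B (1.30, 0.061) were the other tested genes whose ratio was not called. RBM12B was called with a replicate block (1.35, edgeR adjusted p 0.041) and without H3B-8800 replicate 1 (1.95, 0.027).

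Within RBM39, introns differed from one another. Intron 9, chr20:35713097-35714184, minus strand, had 112 and 148 intronic reads in treated cells and 46 and 40 in DMSO cells, and its ratio rose by 0.96 (SE 0.32, edgeR adjusted p 0.021). That call was lost without either treated library (0.074 without replicate 1 and 0.114 without replicate 2) and without DMSO replicate 2 (0.060). Intron 3, chr20:35732136-35738967, had 19 and 27 intronic reads against 32 and 43, while its spliced reads were 1618 and 1689 against 821 and 757. Its ratio fell by 1.77 (SE 0.36, edgeR adjusted p 0.0012). Intron 2, chr20:35739018-35740823, had 117 and 124 against 75 and 78 intronic reads, and the ratio change of -0.37 was not called (edgeR adjusted p 0.233).

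Introns 2 and 3 of RBM39 both overlap several annotated exons. An exon of RBM39-223, a transcript of the retained-intron type, covers all 1806 bases of intron 2. The last exon of the protein-coding RBM39-205 takes 206 bases of intron 3, and longer exons lie there too. Which of these exons the intronic reads belong to was not tested. Each of the introns also holds a short exon that GENCODE includes in some transcripts. The short exons are shown because reads on them, as on the others, may be counted with the intron, though the counting method is not given. The first is 73 bases long and is in 9 transcripts, 8 of them annotated as targets of nonsense-mediated decay. The second is 72 bases long and is in 5 transcripts, 3 of them annotated so. Capitals mark a stop codon that GENCODE annotates there, in 8 transcripts for the first and in 1 for the second. Both sequences are from GENCODE 29 transcripts on hg38, minus strand, 5′ to 3′.
RBM39 exon inside intron 2, chr20:35740525-35740597: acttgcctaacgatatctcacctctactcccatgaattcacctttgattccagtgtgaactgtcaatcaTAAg
RBM39 exon inside intron 3, chr20:35734186-35734257: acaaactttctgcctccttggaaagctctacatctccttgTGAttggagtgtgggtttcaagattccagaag
The files give no value for these exons by themselves, so their inclusion was not measured.

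The 3′ ends of 9 of the RBM introns tested for the ratio could be read from GENCODE transcripts without a coding sequence, and 6 are shown to set introns with a called change of the ratio beside introns without one. Each line gives the last 60 bases of the intron in lower case and the first 10 bases of the next exon in capitals, 5′ to 3′, on hg38. The ratio was called higher at the first 3, lower at the fourth, and was not called at the last 2. The other 3, RBM39 intron 2 and RBM3 introns 1 and 3, were not called and are not shown.
RBM6 intron 5, plus strand, chr3:50059589-50059658: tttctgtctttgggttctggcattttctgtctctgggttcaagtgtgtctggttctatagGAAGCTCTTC
RBM34 intron 2, minus strand, chr1:235160638-235160707: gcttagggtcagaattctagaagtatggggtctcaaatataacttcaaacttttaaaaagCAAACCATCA
RBM39 intron 9, minus strand, chr20:35713087-35713156: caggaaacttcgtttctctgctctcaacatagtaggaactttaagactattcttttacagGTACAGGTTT
RBM39 intron 3, minus strand, chr20:35732126-35732195: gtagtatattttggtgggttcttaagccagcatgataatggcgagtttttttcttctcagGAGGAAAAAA
RBM39 intron 10, minus strand, chr20:35707192-35707261: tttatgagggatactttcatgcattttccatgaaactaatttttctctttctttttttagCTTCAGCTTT
RBM25 intron 9, plus strand, chr14:73103132-73103201: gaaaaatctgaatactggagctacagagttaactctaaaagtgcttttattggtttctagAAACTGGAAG
All 6 end in AG. In the order printed they hold 12, 10, 14, 15, 19 and 13 pyrimidines in the 20 bases before the AG, against a median of 15 over 14033 introns whose 3′ end could be read in the same way. The motif CTNAC, in which N is any base, is absent from the intron part of the 6 shown and of RBM39 intron 2 on the sense strand. RBM3 intron 1 holds 1 match and RBM3 intron 3 holds 3, and 29.7% of the 14033 introns hold at least 1. On the opposite strand RBM34 intron 2 holds 1 match, against 12.7% of those introns. These 9 introns overlap an annotated exon by the way they were chosen.

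Other RNA-binding genes near the family in name or function were counted in the same test of spliced reads. The background is the same 32.8% higher and 32.7% lower. These lists were chosen with earlier results of these data known. Of 5 further RBM-named genes tested, 1 rose, 2 fell and 2 were not called. RBMS2 fell by 0.89 (edgeR adjusted p 2.34e-07) and RBMS1 rose by 0.51 (edgeR adjusted p 8.87e-05). Among 6 genes of the m6A writer, which methylates adenosines in mRNA, 4 rose, 1 fell and 1 was not called. Its catalytic subunit METTL3 fell by 1.42 (edgeR adjusted p 1.55e-08) and ZC3H13, a subunit of its regulatory complex, rose by 0.85 (edgeR adjusted p 5.38e-06).

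Of 4 partners of RBM7, RBM26 and RBM27 in nuclear RNA decay that were tested, 2 rose, 1 fell and 1 was not called. The helicase gene SKIV2L2, also named MTREX, had 103 and 113 CPM after H3B-8800 and 243 and 241 in the controls, a fall of 1.17 (edgeR adjusted p 4.52e-09), while ZC3H18 rose by 0.27 (edgeR adjusted p 0.0016). Among 11 tested regulators of alternative splicing outside the family, 8 rose, 2 fell and 1 was not called. MBNL2 rose by 1.20 (edgeR adjusted p 8.56e-08), and PTBP2, a paralog of PTBP1 that is prominent in neurons, rose by 1.59 (edgeR adjusted p 1.63e-07).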

How the data were processed

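Cytoplasmic polyA RNA of SUM159 cells was measured in 2 libraries per treatment. The libraries were strand-specific, per the labels' protocols, and HISAT2 2.0.4 with the builds hg38 and mm10 is named in the submitters' processing notes. The counting method and its use of strand are not given in the sources used here, so overlapping and antisense genes are uncertain. The authors deposited 2 raw read counts and an RPKM value for introns of 1 transcript per gene, not always all of them. RBM23 intron 7 as listed, for instance, is number 12 of 13 in its GENCODE transcript. Dividing the first count by the deposited RPKM and the length of the intron gives 1 constant per file, used here as the library total. The first count was taken as intronic and the excess of the second as spliced, a reading inferred from the values. About 71% to 72% of intronic counts above 0 were even (70.9% to 72.3%), so mates of a pair may count as 2 reads and counting intervals may be too narrow. Of 142224 introns, 18 had no second count and were left out. The listed ends are exon bases, so introns were moved inward by 1 base, where 99.87% match GENCODE 29.

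edgeR 4.0.16 in R 4.3.3 (glmQLFit, glmQLFTest) was run on all genes averaging 1 CPM or more and on introns or gene ratios averaging 10 or more reads, in ratios of either kind. Ratios were tested as an interaction of read kind and treatment with a term per library. Spliced reads were TMM scaled, and intronic reads were scaled to the library totals. The steps were tested on simulated data. Alternatives were other scalings, lower minimums, DESeq2 1.42.0, a replicate block, leaving out each library, the most-read intron or introns with annotated exons. All members are named, and full statistics go to called members with a change of at least 0.5. Introns named are, per gene with a called ratio, the smallest adjusted p in each direction, with others chosen after their values were seen. The 3′ ends were to come from introns without an annotated exon, which needs a genome not used here. Of the lists, the 2 genes with the smallest adjusted p are named. The result of 1 list is not reported here. The members and lists were chosen with earlier results of these data known.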

Additional observations from a re-analysis of the deposited data

How the results depend on the processing

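Of the 17 RBM genes with a called change of spliced reads, 11 kept their direction and call under every alternative in which they could be tested, and so did 9 of the 13 called gene ratios and 13 of the 17 called intron ratios. Scaling to library totals moved the median of all genes to -0.16 and the share of calls that were higher from 50.0% to 36.2%. It gave RBM10 -0.091, RBM19 -0.095 and RBM6 -0.013, and 16 RBM introns with fewer spliced reads. TMM scaling of intronic reads moved the median of all introns from 1.13 to 0.09 and the share of calls that were higher from 89.4% to 52.5%, with 10 RBM introns higher and 9 lower, RBM39 intron 2 at -0.29 and RBM3 intron 1 at -0.55. On introns without an annotated exon, 5 gene ratios were higher, 7 introns were higher and 0 lower both for intronic reads and for the ratio, and the RBM33 gene ratio was 2.33. That alternative tests fewer introns. DESeq2 called 64 RBM introns higher and 1 lower in spliced reads. Elsewhere the cause was not tested.

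Leaving out 1 library gave 1 to 3 RBM genes lower in spliced reads, with 1 without H3B-8800 replicate 2 or DMSO replicate 1. Introns called ranged from 0 to 17 higher and 0 to 1 lower for intronic reads, and from 0 to 83 higher and 0 to 4 lower for spliced reads. Each 0 came from leaving out an H3B-8800 library, where edgeR called no intron of any gene. Over the 4 settings, changes that were not called ranged on both sides of 0 in RBM4B (-0.70 to 0.25) and RBM45 (-0.49 to 0.064) for spliced reads, in RBM39 (-0.22 to 0.012), RBM45 (-0.19 to 1.17) and RBM27 (-0.17 to 1.02) for the gene ratio, and in RBM3 intron 1 (-0.12 to 1.22e-04) for the intron ratio.

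The replicate numbers gave no sign of pairing: deviations of same-numbered libraries correlated at 0.05 over 9468 genes. With a replicate block, 14 RBM genes rose and 3 fell in spliced reads, 14 gene ratios were higher, RBM12B being the added gene, and 15 intron ratios were higher and 2 lower. With so few libraries, depth limits calls at introns with few reads: the ratio could be tested at 27 of 261.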
